A study of Rattus norvegicus with 6 samples.

Results

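The cadherin superfamily was followed in cultures labelled as Sertoli cells, made from the testes of rats at 21 and at 9 days of age. Its members were taken by symbol: cadherins numbered Cdh, protocadherins (Pcdh), the Dachsous (Dchs), Celsr and Fat genes, and 2 of their cytoplasmic partners, Ctnna1 and Ctnnd1. Probe sets of the array that name exactly 1 gene gave 39 such genes among 14506 compared. Each of the 39 had a single such probe set. The rule used names only and no measured value.

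Each age had 3 arrays, 6 in all. The cells of both ages came from decapsulated, digested testes, were grown as a monolayer in DMEM/F12 medium with 10% fetal bovine serum, and had their medium changed again after another 24 hours to purify them. The labels give no strain, genotype or treatment, place the 21-day-old cells after the phase of proliferation and the 9-day-old cells within it, and do not say whether arrays of 1 age came from separate rats or cultures. P-values therefore measure only the spread between these arrays, which may be technical, and the number of arrays limits the precision.

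Cadherins are membrane proteins that bind a like molecule on the next cell through repeated extracellular domains held rigid by calcium. Classical cadherins carry a tail that binds beta-catenin and, near the membrane, a delta-catenin, and alpha-catenin ties this complex to actin. Protocadherins, the giant Fat and Dachsous cadherins and the Celsr receptors share the repeats but not that tail, and act in cell recognition, tissue growth and planar polarity. In the seminiferous epithelium, cadherins hold Sertoli cells to each other and to germ cells at the junctions of the blood-testis barrier and at the apical junctions.

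The values are deposited log2 values after RMA, which equalizes the distributions of the arrays and sets no zero. Array medians lay between 3.78 and 3.87 over all probe sets. Markers of the labelled cell type were only partly at high signal: 8 of 14 measured Sertoli cell markers lay above the median of every array, whereas Amh, Fshr, Cldn11, Gata1, Shbg and Dhh did not. All 9 markers of smooth muscle and peritubular myoid cells and all 9 of fibroblasts lay above those medians. So did 1 of 9 germ cell, 2 of 9 endothelial, 2 of 6 Leydig cell and 1 of 8 macrophage markers, and 3 of 6 markers of neurons and glia. For the smooth muscle markers the array numbered 3 had the highest mean at either age. The mean of the smooth muscle markers was 8.17, 7.61 and 9.44 in 21-day-old arrays and 8.27, 8.45 and 9.74 in 9-day-old arrays, in order of their numbers. Sertoli cell markers averaged 4.98, 5.32 and 5.82 in 21-day-old arrays and 4.64, 4.82 and 4.72 in 9-day-old arrays, and 13 of the 14 had a higher mean at 21 days, with a median difference of 0.34. All 9 smooth muscle markers had a lower mean at 21 days, with a median difference of -0.35. At an unadjusted p under 0.05 in limma, the model described next, were 1 Sertoli cell marker and 0 smooth muscle markers, beside 2.97% of all genes. With the replicate number as a block these counts were 6 and 3, beside 7.73%.

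No cadherin superfamily gene passed the test for a difference between the ages. In limma, a linear model with moderated variances, 0 of the 39 passed an adjusted p under 0.05, as did 0 of all 14506 genes, a background of 0%. At 21 days 20 members were higher, 18 lower and 1 equal, beside 6750 higher and 7733 lower of all 14506 genes. The median log2 difference of the members was 0.012, beside -0.0093 over all genes. Their split was 17 higher and 22 lower when each array was centred on its median. For 30 members, or 76.9%, the log2 difference was below 0.15 in size, beside 11129 of all 14506 genes, a similar share. A fold of 2 was reached by 0 members, beside 0.427% of all genes. An unadjusted p under 0.05 was seen for 2 members, Dchs1 and Pcdh11x, or 5.13%, beside 2.97% of all genes. For 3 members, Dchs1, Cdh6 and Cdh17, the 3 values of one age lay apart from the 3 of the other, which is 7.69% beside 5.72% of all genes. Both shares rest on 2 or 3 genes and lie near the background.

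Arrays that share a replicate number also shared part of their deviation, and the model with the number as a block called 0 members and 0 genes at an adjusted p under 0.05. It gave an unadjusted p under 0.05 to 6 members, or 15.4%, beside 7.73% of all genes. Of these 6, Cdh17, Pcdh1, Pcdh11x and Pcdhb20 were higher at 21 days, 10.3% of members beside 3.29% of all genes, and Dchs1 and Cdh13 were lower, 5.13% beside 4.45%. The lowest adjusted p of a member with the block was 0.418, for Dchs1. In each of the 3 pairs of the same number, 6 members were higher at 21 days, 15.4% beside 10.7% of all genes. A further 4 were lower in each pair, 10.3% beside 14.4%. Together these were 25.6% of members beside 25.2% of all genes.

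**Figure D1:**
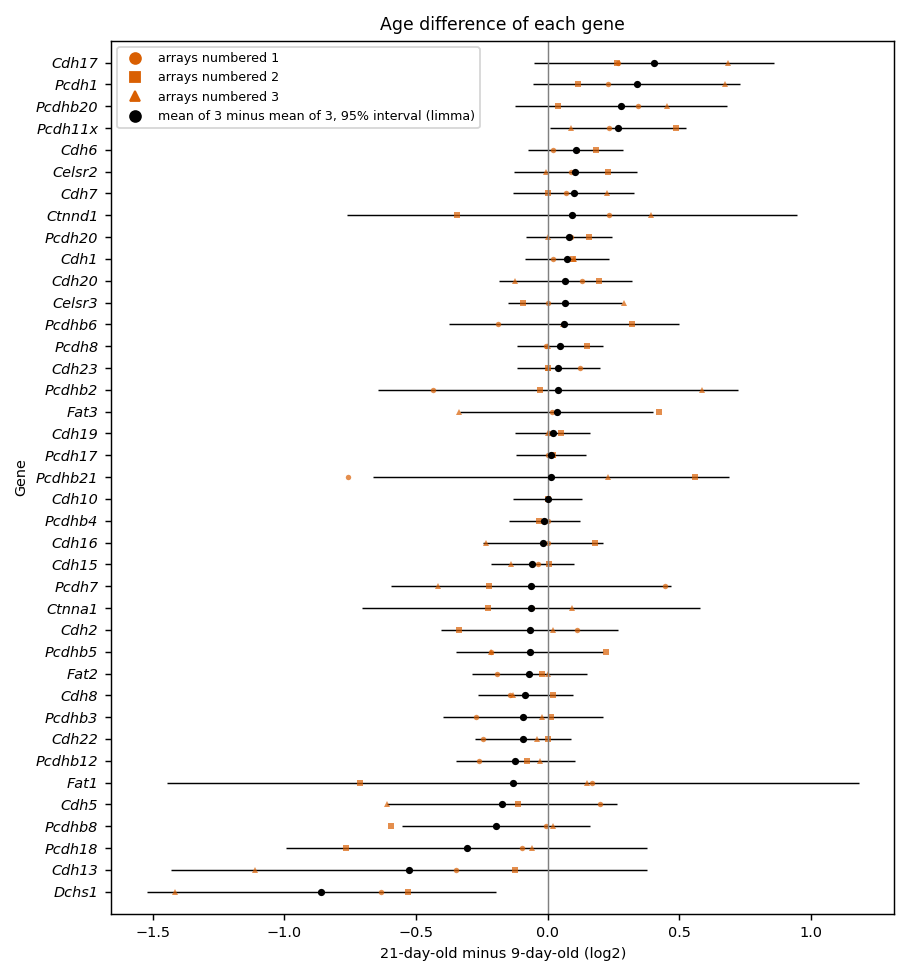
Log2 difference of each of the 39 genes, 21-day-old minus 9-day-old. Black points are differences of the means of 3 arrays with 95% intervals from limma, and orange symbols are the differences within arrays of the same number. The intervals of Dchs1, at -0.86, and Pcdh11x, at 0.27, leave out 0 and those of the other genes include it.

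By signal the superfamily fell into a few genes high on the arrays and many low ones. Cdh2, Ctnna1, Ctnnd1 and Fat1 lay above the upper quartile of every array, and Cdh5, Dchs1, Pcdh7, Pcdh18 and Pcdhb2 above the median of every array. A further 26 members, 66.7%, lay below the median of every array, beside 37.8% of all genes, and 6 of these lay below the lower quartile. Probe sets differ in their response, so this order is a rough guide and no comparison of transcript amounts. Detection calls were not used here, so whether the low signals exceed background is unknown, and a small difference at low signal does not show that expression was alike. Of the 39 members 19 had exactly the same value on at least 2 arrays, 48.7% beside 37.8% of all genes, and Cdh10 had 2.17 on all 6.

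**Figure D2:**
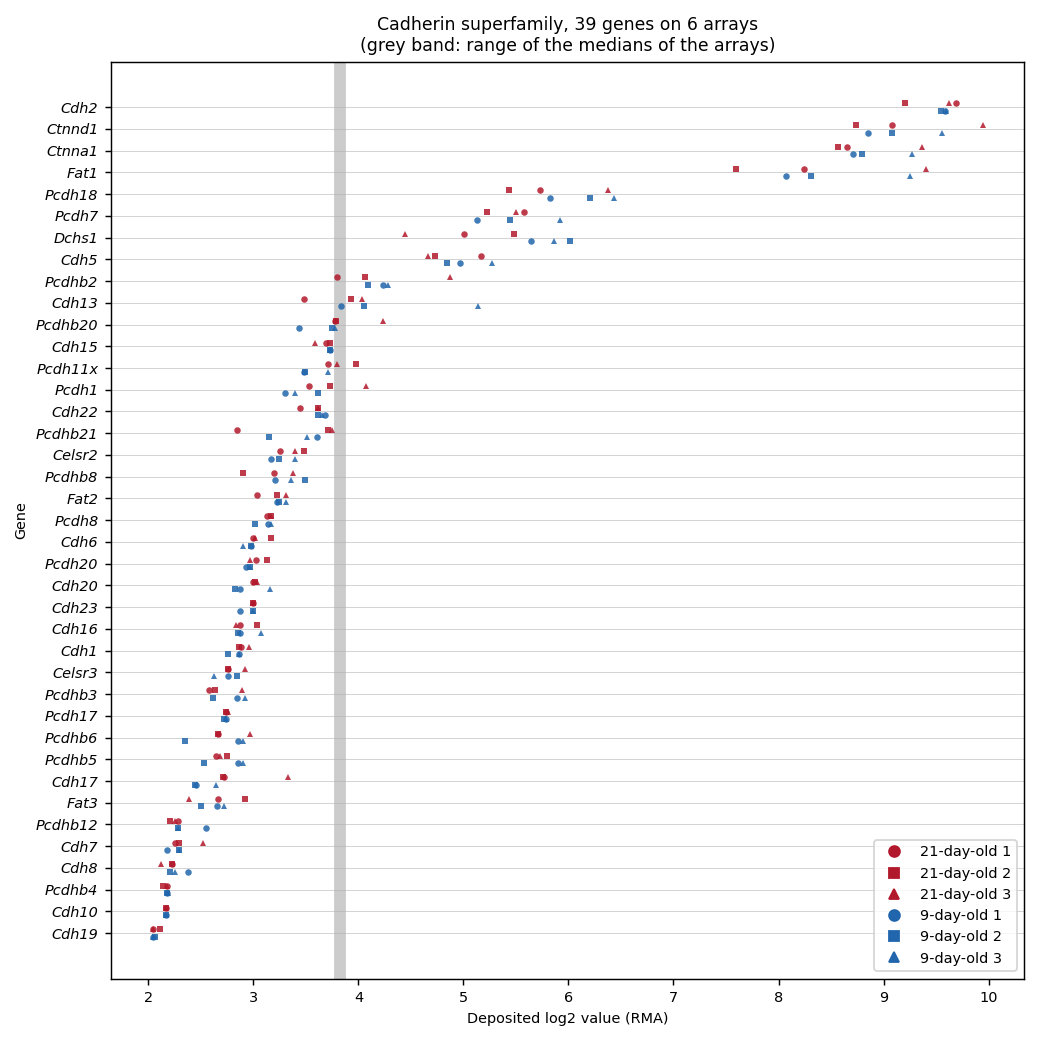
Deposited log2 values of the 39 genes on the 6 arrays, in order of their mean. Red marks 21-day-old and blue 9-day-old arrays, symbols mark the replicate number, and the grey band spans the medians of the arrays, 3.78 to 3.87. Cdh2, Ctnnd1, Ctnna1 and Fat1 lie between 7.59 and 9.95 on every array, and most genes lie left of the band.

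Among the classical cadherins Cdh2, which encodes N-cadherin, the cadherin best known from Sertoli cell junctions, was at high signal at both ages. It measured 9.69, 9.21 and 9.62 in 21-day-old arrays and 9.58, 9.54 and 9.60 in 9-day-old arrays. The 21-day-old values enclosed the 9-day-old ones, with 21-day-old replicate 2 the lowest of all. Cdh2 averaged 9.51 ± 0.26 at 21 days and 9.57 ± 0.03 at 9 days (SD, n = 3 each), a log2 difference of -0.068 ± 0.14 (SE) with a 95% interval from -0.40 to 0.27 in limma. The sign turned without 21-day-old replicate 2, to 0.081.

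Cdh1 encodes E-cadherin, the cadherin of most epithelia, which in the testis is known from undifferentiated spermatogonia. Its values were 2.88, 2.86 and 2.96 in 21-day-old arrays and 2.86, 2.76 and 2.86 in 9-day-old arrays. All 6 lay below the array medians, and the ages overlapped. Cdh1 differed by 0.073 ± 0.065 (log2, SE), with a 95% interval from -0.088 to 0.23 in limma. Cdh15, the M-cadherin of skeletal muscle, was likewise low, at 3.67 ± 0.07 at 21 days and 3.73 ± 0.003 at 9 days (SD, n = 3 each). The other classical cadherins Cdh3 and Cdh4 were not analysed here.

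Of the 8 type II cadherins, 4 were higher and 3 lower at 21 days, with differences from -0.17 to 0.11, and Cdh10 was equal. Cdh5 encodes VE-cadherin, which holds endothelial cells together, and was the only one of them above the array medians. It was at 5.17, 4.73 and 4.66 in 21-day-old arrays and at 4.97, 4.84 and 5.27 in 9-day-old arrays. The ages overlapped widely, and the pairs of the same number differed by 0.20, -0.11 and -0.61. The log2 difference was -0.17 ± 0.18 (SE) with a 95% interval from -0.61 to 0.26, and it was 0.044 without both arrays numbered 3. Of the 9 endothelial markers 5 were higher and 4 lower at 21 days, with list means from 3.37 to 3.70 at 21 days and from 3.43 to 3.81 at 9 days. The 2 above the median of every array, Flt1 and Egfl7, were both lower at 21 days, by -0.94 ± 0.55 and -0.055 ± 0.084 (SE). The part of endothelial markers in the Cdh5 values was not tested.

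Cdh6, the K-cadherin of developing kidney, was one of the genes without overlap, but by a narrow margin. Its values were 3.00, 3.16 and 3.01 in 21-day-old arrays and 2.97, 2.98 and 2.90 in 9-day-old arrays, a log2 difference of 0.11 ± 0.07 (SE, unadjusted p = 0.194 and adjusted p = 1 in limma). Every value lay below the array medians. Cdh7, Cdh8, Cdh19, Cdh20 and Cdh22 had age means between 2.05 and 3.65 and differences between -0.094 and 0.099.

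The remaining cadherins outside these types held the largest positive difference of the superfamily and the negative one next in size to that of Dchs1, neither past the test. Cdh13 encodes T-cadherin, which is anchored by a lipid and has no cytoplasmic tail. It measured 3.48, 3.93 and 4.03 in 21-day-old arrays and 3.83, 4.05 and 5.14 in 9-day-old arrays. The ages overlapped, each pair of the same number was lower at 21 days (differences of -0.35, -0.12 and -1.11), and 9-day-old replicate 3 stood above all others. The log2 difference of -0.53 ± 0.37 (SE) was -0.13 without that array. In limma the unadjusted p was 0.202, and 0.0496 with the replicate block.

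Cdh17, the liver-intestine cadherin, gave 2.72, 2.71 and 3.33 in 21-day-old arrays and 2.46, 2.45 and 2.64 in 9-day-old arrays. All 21-day-old values exceeded all 9-day-old ones, and all 6 lay below the array medians. Cdh17 averaged 2.92 ± 0.35 at 21 days and 2.52 ± 0.11 at 9 days (SD, n = 3 each), a ratio of 1.32. The log2 difference of 0.40 ± 0.19 (SE) had an unadjusted p of 0.0726 in limma and of 0.0157 with the block, and was 0.20 without 21-day-old replicate 3. Cdh16, a kidney cadherin, and Cdh23, a part of the tip links of hair cells, differed by -0.017 and 0.041 from means near 3.

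Among the Fat and Dachsous genes, Dchs1 had the largest difference of the superfamily. Dchs1 encodes a giant cadherin that binds Fat4 on the neighbouring cell and acts in planar polarity. It was at 5.01, 5.48 and 4.44 in 21-day-old arrays and at 5.64, 6.01 and 5.86 in 9-day-old arrays. Every 21-day-old value lay below every 9-day-old one, with 21-day-old replicate 3 the lowest. Dchs1 averaged 4.98 ± 0.52 at 21 days and 5.84 ± 0.19 at 9 days (SD, n = 3 each), a ratio of 0.551. The log2 difference was -0.86 ± 0.27 (SE), with a 95% interval from -1.52 to -0.20, an unadjusted p of 0.0194 and an adjusted p of 1 in limma. With the block the unadjusted p was 0.0069 and the adjusted p 0.418. The pairs of the same number differed by -0.63, -0.53 and -1.42, and the difference was -0.59 without 21-day-old replicate 3. Whether the cultures held several cell types was not tested. If they did, fewer cells of a type and less RNA per cell cannot be told apart, for any gene of this report. Fibroblast markers averaged 9.37, 9.48 and 9.13 in 21-day-old arrays and 9.41, 9.28 and 9.42 in 9-day-old arrays, with 3 of 9 higher and 6 lower. An unadjusted p under 0.05 in limma was seen for 2 of the 9, or 22.2%, beside 2.97% of all genes. These were Pdgfra (-0.73 ± 0.18) and Thy1 (1.03 ± 0.40, SE), of opposite direction. The part of fibroblast markers in the Dchs1 values was not tested. Fat4, the binding partner, and Dchs2 were not analysed here.

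Fat1, a giant cadherin that organizes actin at cell edges, was high on every array, and highest on the arrays numbered 3. It measured 8.24, 7.59 and 9.40 in 21-day-old arrays and 8.07, 8.31 and 9.25 in 9-day-old arrays. Both arrays numbered 3 lay above the other 4. The log2 difference between the ages was -0.13 ± 0.53 (SE), with a 95% interval from -1.44 to 1.18 in limma. With the replicate block its SE was 0.20 and its unadjusted p 0.538. Its sign turned without 9-day-old replicate 3 (0.22) or 21-day-old replicate 2 (0.28). Leaving out 1 array leaves its number at 1 age only, and without both arrays numbered 3 the difference was -0.27. Fat2 and Fat3 were low, with age means from 2.62 to 3.26 and differences of -0.070 and 0.035.

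The catenins showed the same arrangement as Fat1. Ctnnd1 encodes a delta-catenin, one that keeps cadherins at the cell surface. Ctnnd1 measured 9.08, 8.74 and 9.95 in 21-day-old arrays and 8.85, 9.08 and 9.55 in 9-day-old arrays. Ctnna1 encodes alpha-catenin, the link to actin, and measured 8.65, 8.57 and 9.36 in 21-day-old arrays and 8.71, 8.79 and 9.27 in 9-day-old arrays. For each gene the arrays numbered 3 were the highest of their age, and the ages overlapped. The log2 differences were 0.094 ± 0.35 for Ctnnd1 and -0.064 ± 0.26 for Ctnna1 (SE). With the replicate block the SEs were 0.16 and 0.088. Without both arrays numbered 3 the differences were -0.056 and -0.14, and without 21-day-old replicate 3 alone they were -0.25 and -0.32. Ctnnd1 also turned without 9-day-old replicate 1, to -0.062, and Ctnna1 turned to 0.11, 0.042 and 0.082 without 9-day-old replicate 3, 21-day-old replicate 1 and 21-day-old replicate 2.

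Set against the mean of the other arrays of their age, the arrays numbered 3 were higher by 1.48 (21 days) and 1.06 (9 days) for Fat1, by 1.03 and 0.59 for Ctnnd1 and by 0.76 and 0.52 for Ctnna1, on the log2 scale. These 3 were the members at least 0.5 higher at both ages, 7.69% beside 3.03% of all genes, and 0 members were at least 0.5 lower at both, beside 2.37%. The mean of the 9 smooth muscle markers was higher by 1.55 (21 days) and 1.37 (9 days) in the same arrays, and its part in these values was not tested. Cdh2 was higher by 0.17 and 0.036. The markers of Sertoli cells differed by 0.67 at 21 days and -0.010 at 9 days. Cdh13 and Pcdh7 stood 0.5 or more above the others only at 9 days, by 1.20 and 0.63, and Pcdh18, Pcdhb2 and Cdh17 only at 21 days, by 0.79, 0.94 and 0.61. Dchs1 differed by -0.80 at 21 days and 0.034 at 9 days.

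**Figure D3:**
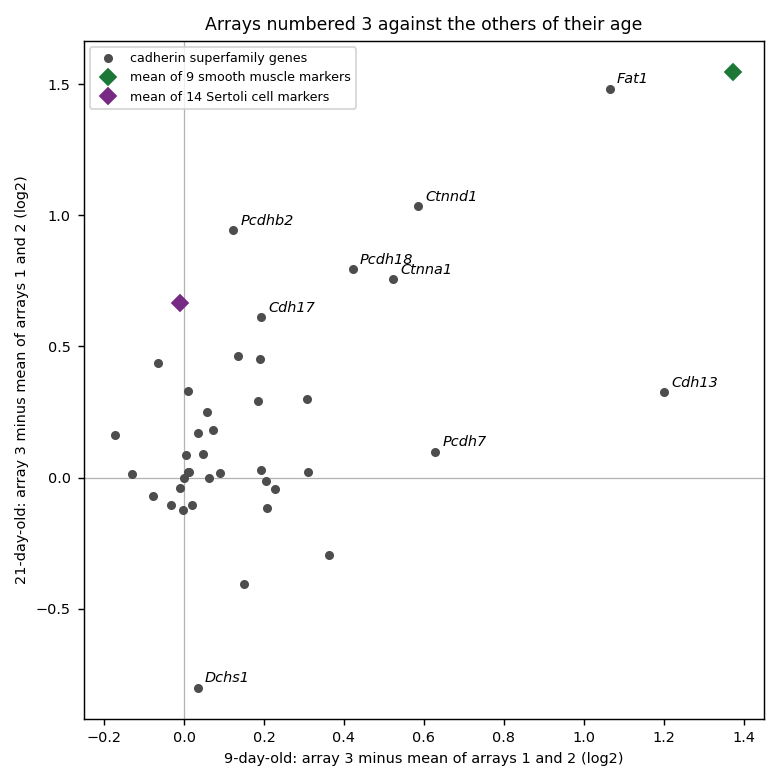
Array numbered 3 minus the mean of arrays 1 and 2 of the same age, in log2, with 21-day-old cultures on the vertical and 9-day-old cultures on the horizontal axis. Grey points are the 39 genes, and diamonds are means of marker lists. Fat1, at 1.48 and 1.06, lies nearest to the smooth muscle markers, at 1.55 and 1.37, and Dchs1 lies lowest.

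Promoter sequences are shown for the genes of this group that had one and for Pcdh11x, described next. RefSeq's promoter table, build GRCr8, held windows of 250 bases before to 50 after the gene start for 31 of the 39 members, and not for Cdh1, Cdh2, Cdh5, Cdh13, Cdh16, Cdh17, Ctnna1 or Dchs1. Capitals mark the E-box CANNTG, a form of which, CAGGTG, is bound by the Snail and Zeb repressors of Cdh1, the letters GGAATG or CATTCC, bound by the TEAD factors of the Hippo pathway, and the CArG box, bound by serum response factor. Both strands were searched, and no marked letters overlap.
Fat1 (chr16:54028560-54028859, minus strand): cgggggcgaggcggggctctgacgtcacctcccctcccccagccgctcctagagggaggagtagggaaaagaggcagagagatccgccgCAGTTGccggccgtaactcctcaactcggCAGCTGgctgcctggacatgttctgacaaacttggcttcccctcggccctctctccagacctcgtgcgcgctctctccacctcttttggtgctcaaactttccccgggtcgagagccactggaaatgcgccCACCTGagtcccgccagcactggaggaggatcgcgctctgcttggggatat
Ctnnd1 (chr3:90141140-90141439, minus strand): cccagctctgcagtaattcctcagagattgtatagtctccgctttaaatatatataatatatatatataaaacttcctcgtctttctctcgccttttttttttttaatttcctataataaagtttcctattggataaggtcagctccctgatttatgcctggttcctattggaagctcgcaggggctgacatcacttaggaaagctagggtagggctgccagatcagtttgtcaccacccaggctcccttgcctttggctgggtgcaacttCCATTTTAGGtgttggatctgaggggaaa
Pcdh11x (chrX:90278985-90279284, plus strand): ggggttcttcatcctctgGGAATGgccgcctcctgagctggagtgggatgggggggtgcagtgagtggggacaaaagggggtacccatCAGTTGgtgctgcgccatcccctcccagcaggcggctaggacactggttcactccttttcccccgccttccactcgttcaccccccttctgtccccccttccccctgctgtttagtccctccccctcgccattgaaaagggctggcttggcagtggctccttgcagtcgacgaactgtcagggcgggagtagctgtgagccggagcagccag
The Fat1 window held 3 E-boxes, the Ctnnd1 window 1 CArG box and 0 E-boxes, and the Pcdh11x window 1 E-box and 1 copy of GGAATG. Of the 3 in Fat1, CACCTG is CAGGTG read on the other strand, a form not counted apart here. An E-box was found in 20 of the 31 member windows, 64.5%, beside 72.1% of all 33469 windows of this length. GGAATG or CATTCC was found in 4, 12.9% beside 14.2%, and the CArG box in 1, 3.23% beside 1.64%. These are matches of letters and say nothing of binding in these cells.

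Of the 7 protocadherins outside the gene clusters, 5 were higher and 2 lower at 21 days. Pcdh11x, an X-linked protocadherin best known from brain, measured 3.71, 3.98 and 3.80 in 21-day-old arrays and 3.48, 3.49 and 3.71 in 9-day-old arrays. The ages met at 3.71, and the pairs of the same number differed by 0.23, 0.49 and 0.087. Pcdh11x averaged 3.83 ± 0.13 at 21 days and 3.56 ± 0.13 at 9 days (SD, n = 3 each). The log2 difference was 0.27 ± 0.10 (SE), with an unadjusted p of 0.0435 and an adjusted p of 1 in limma. It lay between 0.20 and 0.35 when any 1 array was left out. The unadjusted p in limma was 0.0631 with each array centred on its median and 0.0530 with the 10879 genes of highest mean kept. With 1 array left out this p was under 0.05 only without 9-day-old replicate 3 or 21-day-old replicate 1.

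Pcdh1, a protocadherin of airway and other epithelia, was at 3.53, 3.73 and 4.07 in 21-day-old arrays and at 3.30, 3.62 and 3.39 in 9-day-old arrays. The ages overlapped, and 21-day-old replicate 3 was the highest. The log2 difference was 0.34 ± 0.16 (SE, unadjusted p = 0.0793 in limma and 0.0465 with the block), and 0.19 without that array.

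Pcdh7, whose protein binds a protein phosphatase, measured 5.58, 5.23 and 5.50 in 21-day-old arrays and 5.13, 5.45 and 5.92 in 9-day-old arrays. The ages overlapped and the pairs of the same number differed in sign, by 0.45, -0.22 and -0.42. Its log2 difference of -0.064 ± 0.22 (SE) turned to 0.15 without 9-day-old replicate 3 and to 0.040 without 21-day-old replicate 2.

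Pcdh18 had the highest mean of these protocadherins and is named after its values were seen. It was at 5.73, 5.44 and 6.37 in 21-day-old arrays and at 5.82, 6.20 and 6.43 in 9-day-old arrays. Each pair of the same number was lower at 21 days, with differences of -0.097, -0.77 and -0.059, while the ages overlapped. The log2 difference of -0.31 ± 0.28 (SE) was -0.10 without 21-day-old replicate 2 and -0.57 without 21-day-old replicate 3. Pcdh8, Pcdh17 and Pcdh20 had means between 2.74 and 3.15 and differences of 0.048, 0.014 and 0.081.

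**Figure D4:**
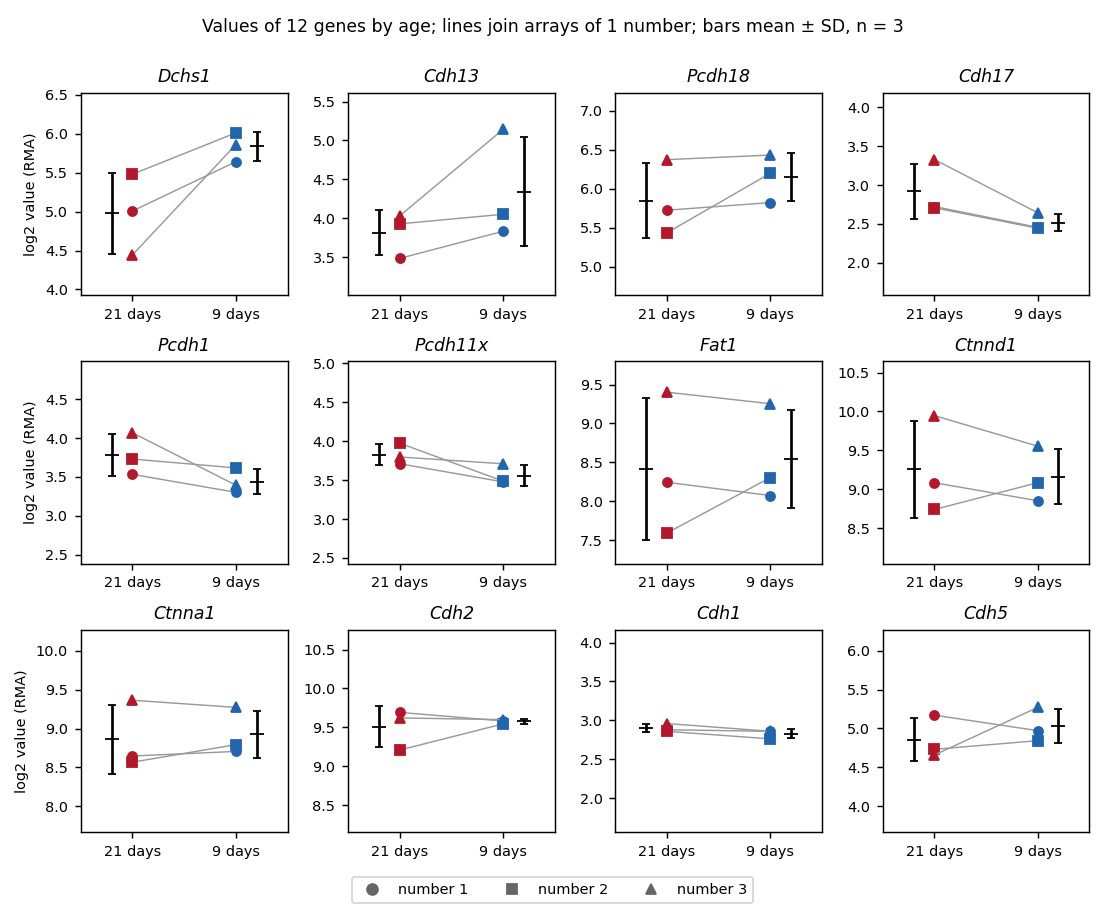
Log2 values of 12 genes in 21-day-old (left, red) and 9-day-old arrays (right, blue), on axes of equal span. Lines join arrays of 1 number, and bars show the mean and SD of 3 arrays. Dchs1 and Cdh17 part the ages, whereas Fat1, Ctnnd1 and Ctnna1 have the arrays numbered 3 on top at both ages.

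The clustered protocadherins are neighbouring, closely related genes whose products give neurons a surface identity, and probe sets may share signal among them. The beta genes given with values here are named after these were seen. Of 9 beta genes measured by a probe set of their own, 4 had a higher and 5 a lower mean at 21 days, and their median difference was -0.013 on the log2 scale. Pcdhb20 differed by 0.28 ± 0.16 (SE), with 3.78, 3.78 and 4.24 in 21-day-old arrays and 3.44, 3.75 and 3.78 in 9-day-old arrays, and was higher in each pair. Its unadjusted p was 0.14 in limma and 0.0445 with the block, and the difference was 0.13 without 21-day-old replicate 3. Pcdhb2, the beta gene of highest mean, was at 3.80, 4.06 and 4.87 in 21-day-old arrays and at 4.24, 4.09 and 4.28 in 9-day-old arrays, so that the 21-day-old values enclosed the others. Pcdhb21 varied within 21 days from 2.85 to 3.74 and differed by 0.012 ± 0.27 (SE). The other 6, Pcdhb3, Pcdhb4, Pcdhb5, Pcdhb6, Pcdhb8 and Pcdhb12, differed by -0.19 to 0.063.

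A further 3 probe sets name several clustered protocadherins each and stayed outside the 39. The one for 15 alpha genes was at 2.85 ± 0.04 at 21 days and 2.87 ± 0.002 at 9 days (SD, n = 3 each). That for 13 gamma genes was at 4.21 ± 0.09 at 21 days and 4.27 ± 0.12 at 9 days, the only 1 of the 3 above the array medians. That for Pcdhb9 and Pcdhb10 was at 2.74 ± 0.06 at 21 days and 2.79 ± 0.12 at 9 days. The differences of the 3 ran from -0.063 to -0.027.

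Celsr2 and Celsr3 encode receptors with cadherin repeats that act in planar polarity. Celsr2 measured 3.25, 3.48 and 3.39 in 21-day-old arrays and 3.17, 3.25 and 3.40 in 9-day-old arrays. The ages overlapped below the array medians, with a log2 difference of 0.10 ± 0.09 (SE). Celsr3 differed by 0.065 ± 0.088 (SE). Celsr1 and Cdh11 were not analysed here.

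Proteins that work with cadherins were read from the same model. Of 16 measured cytoplasmic partners 5 had a higher and 11 a lower mean at 21 days, 0 passed, and the median difference was -0.055. An unadjusted p under 0.05 was seen for 2, Ctnnb1 and Ctnnd2, or 12.5%, beside 2.97% of all genes. Ctnnb1, the beta-catenin that binds the tail of classical cadherins and carries Wnt signals, was at 9.34, 9.39 and 9.18 in 21-day-old arrays and at 9.61, 9.73 and 9.45 in 9-day-old arrays. All 21-day-old values lay below all 9-day-old ones, and the pairs of the same number differed by -0.26, -0.34 and -0.27. Ctnnb1 differed by -0.29 ± 0.10 (SE, unadjusted p = 0.0298 and adjusted p = 1 in limma).

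Ctnnd2, a delta-catenin best known from neurons, was at 3.95, 4.33 and 4.27 in 21-day-old arrays and at 4.93, 4.72 and 4.62 in 9-day-old arrays. The ages did not overlap, and the log2 difference was -0.57 ± 0.14 (SE, unadjusted p = 0.00585 in limma). Jup, the plakoglobin of desmosomes and adherens junctions, was at 5.95, 6.36 and 8.05 in 21-day-old arrays and at 5.49, 5.75 and 6.21 in 9-day-old arrays. Its difference of 0.97 ± 0.56 (SE) was largest in the arrays numbered 3 and was 0.34 without 21-day-old replicate 3.

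Other proteins with cadherin repeats were low throughout: 0 of the 8 measured lay above the array medians in all arrays, 4 were higher and 4 lower at 21 days, and the largest differences were -0.084 for the desmosomal Dsc2, 0.060 for Clstn2 and -0.057 for Dsg4. In the pathway of Fat, Dachsous and Celsr, 4 of 16 genes had a higher and 12 a lower mean at 21 days, 0 passed, and the median difference was -0.031. The largest differences were 0.39 ± 0.32 for the receptor gene Fzd6, -0.28 ± 0.20 for the polarity gene Vangl1 and 0.26 ± 0.39 for Fjx1, whose relative in the fly phosphorylates Fat and Dachsous (SE). Without 21-day-old replicate 3 Fzd6 differed by 0.033 and Fjx1 by -0.20. An unadjusted p under 0.05 was seen for 2 of the 16, or 12.5% beside 2.97% of all genes, Yap1 (-0.22 ± 0.07) and Sav1 (-0.26 ± 0.09), parts of the Hippo pathway, which Fat controls in the fly. Both are named after their values were seen.

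The list of cadherin cleavage and transcriptional repression had 8 of 10 measured genes with a higher mean at 21 days and 2 with a lower one, 0 passed, and the median difference was 0.14. Snai1, which encodes the Snail repressor of Cdh1, was at 7.51, 7.69 and 7.51 in 21-day-old arrays and at 6.97, 7.33 and 7.11 in 9-day-old arrays. The ages did not overlap, and each pair of the same number was higher at 21 days, by 0.54, 0.36 and 0.40. The log2 difference was 0.43 ± 0.12 (SE, unadjusted p = 0.0101 and adjusted p = 1 in limma), and it lay between 0.35 and 0.53 when any 1 array was left out. The related repressor genes Snai2 and Zeb2 differed by -0.28 ± 0.48 and 0.27 ± 0.14 (SE). Snai2 turned to 0.091 without 21-day-old replicate 2.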

How the data were processed

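Total RNA was labelled with a whole-transcript kit and hybridised to 6 Affymetrix arrays. RMA, the method the authors used for the deposited log2 values according to the submitters' processing notes, corrects background, equalizes arrays and summarises probe sets. Its version is not given in the sources used here. Of 29214 probe sets 15310 name 1 gene, 323 several and 13581 none. The platform's annotation gave the names, checked against RefSeq (GRCr8) by Entrez number for 15279 probe sets, with 0 symbols altered. For 527 genes with several probe sets the one of highest mean was used. RefSeq lists 84 protein-coding genes under the rule: 39 were compared, 16 are named only on shared probe sets, and 29 were not analysed here.

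The ages were compared in limma 3.58.1 (R 4.3.3) by lmFit and eBayes, 21 days minus 9 days, without covariates, with Benjamini-Hochberg adjustment over all 14506 genes and a threshold of 0.05. Deviations of arrays of the same number from the means of their ages correlated across genes at 0.439, 0.549 and 0.673 for numbers 1, 2 and 3, each over the limit of 0.1. Arrays of different numbers correlated at -0.552 to 0.165. The highest of these, 21-day-old replicate 2 with 9-day-old replicate 1, was over the limit too. The numbers, which stand in the titles without a stated meaning, were therefore treated as pairs in the replicate block and the differences within pairs. The main model left the pairs out, and it gave every SE, interval and p-value not marked as from the block.

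Members, lists and tests were chosen with earlier results of these data known. Genes were named by a rule: core members of each family, members with an unadjusted p under 0.05, a difference of at least 0.5 or no overlap, and the 3 largest differences of each list. Alternatives were the block, filters, scalings, probe set choice, variance models and left-out arrays. No scan date or slide was used here, and batches were not tested. Figures used matplotlib 3.10.9.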

Additional observations from a re-analysis of the deposited data

How the results depend on the processing

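Under all 17 alternatives 0 cadherin superfamily genes and 0 genes of the partner and pathway lists passed an adjusted p under 0.05. Over all genes 0 passed too, except that 5 passed with the replicate block and only the 7253 genes of highest mean kept, which left 8 members. Members at an unadjusted p under 0.05 numbered 2 with all genes and arrays, 6 with the replicate block, and 1 with the 10879 genes of highest mean kept (25 members), with 7253 kept, with the block and 7253 kept, or with each array centred on its median. They numbered 0 to 2 when 1 array was left out, with 0 without 9-day-old replicate 2. The median difference of the members ran from -0.100, over the 8 members left with 7253 genes kept, to 0.057, without 9-day-old replicate 3. The block, the filters, the trended variance model and the choices of probe set leave the difference of each member unchanged. Values under these settings could not change direction. Of 222 values of the 14 genes named by rule, which include these, 208 kept their direction. Leaving out 1 array turned 10, with ranges of -0.63 to 0.28 for Fat1, -0.32 to 0.11 for Ctnna1, -0.25 to 0.35 for Ctnnd1, -0.25 to 0.15 for Pcdh7 and -0.16 to 0.081 for Cdh2. Without both arrays numbered 3, Fat1 (-0.27), Ctnna1 (-0.14) and Cdh2 (-0.11) kept their direction. In that setting Cdh5 turned to 0.044, Ctnnd1 to -0.056 and Pcdh7 to 0.11, and with array weights Pcdh7 turned to 0.034. The cause of these turns was not tested. The number of arrays and the unknown detection limit bound what low signals can show.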
